A study of Homo sapiens with 16 samples.

Results

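The 10 genes described here encode the 8 subunits of the human condensin complexes (NCAPD2, NCAPG, NCAPH, NCAPD3, NCAPG2, NCAPH2, SMC2 and SMC4), DNA topoisomerase II alpha (TOP2A) and the proliferation antigen Ki-67 (MKI67). They were chosen as a list of symbols whose products act on mitotic chromosomes, with earlier results of these data known. They are 10 of the 62069 genes in the count table. All 10 had enough reads to be tested, among 13526 genes that did. RNA was measured by RNA-seq in 16 libraries of IMR90 ER:RAS cells, human lung fibroblasts with a RAS oncogene joined to the oestrogen receptor, so that adding 4-hydroxytamoxifen (4OHT) activates it. Prolonged RAS signalling makes fibroblasts senescent, that is, lastingly arrested in growth. The libraries form 4 groups of 4, all labelled as passage 15 and day 6. EV cells, the control without a hairpin, are labelled non-senescent. EV_4OHT cells are the same control given 4OHT, at 100 nM, and are labelled senescent. The day is labelled as counted from 4OHT in all groups, EV included. shAHCY_2 and shAHCY_4 cells were also given 4OHT and carry 1 of 2 hairpins against AHCY, the enzyme that breaks down S-adenosylhomocysteine, the by-product of methylation reactions. No group holds cells without ER:RAS that were given 4OHT, or hairpin cells without it, so the comparison of EV_4OHT with EV holds the agent and RAS activation together. None carries a hairpin with another target either. Each comparison of a hairpin group with EV_4OHT therefore holds the presence of a hairpin and the loss of AHCY together. Whether replicates were grown as separate cultures is not stated in the labels, so each p-value measures only how these libraries spread, which may be technical.

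Condensins are ring-shaped ATPases that fold chromatin into compact mitotic chromosomes by extruding loops of DNA. Condensin I and condensin II share the SMC2 and SMC4 core and differ in their other subunits. NCAPH and NCAPH2 are the kleisins that close the ring, while NCAPD2 and NCAPG in condensin I, and NCAPD3 and NCAPG2 in condensin II, are HEAT-repeat subunits that grip DNA. Condensin II is nuclear throughout the cell cycle and condensin I reaches the chromosomes after the nuclear envelope breaks down. TOP2A passes DNA strands through each other so that sister chromatids can be untangled, and Ki-67 coats mitotic chromosomes and keeps them apart. TOP2A and MKI67 transcripts peak in the G2 and M phases of dividing cells and are low in arrested ones.

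Libraries held 8236199 to 18235787 gene counts. The target gene behaved as labelled. AHCY stood at 124, 106, 102 and 123 CPM (gene counts relative to the library total, scaled by TMM factors) in EV and at 168, 163, 173 and 154 in EV_4OHT, against 20.1, 19.0, 12.1 and 22.8 in shAHCY_2 and 13.4, 14, 18 and 13.5 in shAHCY_4. All 10 fibroblast markers checked were expressed. Their summed level was 15017 to 18135 CPM in EV and 8371 to 10160 in the 3 groups given 4OHT. Of the 5 epithelial markers, CDH1 was under 1 CPM in every library, and the sum was 88.7 to 103 CPM in EV and 45.1 to 59.7 in the other groups. The 4 endothelial markers summed to at most 2.0 CPM, with PECAM1 and CDH5 at 0 counts, and the 5 blood cell markers to at most 1.20 CPM, with CD3E at 0 counts. In EV_4OHT 8 of the 10 fibroblast markers fell and none rose. The epithelial list went both ways, with KRT19 at a mean of 50.9 CPM in EV and 1.44 in EV_4OHT and KRT18 at 34.1 and 44.7. The part of these markers in the results below was not tested.

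All 10 genes fell in EV_4OHT against EV, by 1.75-fold to 16.2-fold, where 26.8% of all genes tested were called lower, and the condensin I subunits, NCAPG2, SMC4, TOP2A and MKI67 fell furthest. In both hairpin groups 7 of the 10 were higher than in EV_4OHT, by 1.65-fold to 4.70-fold, and stayed below EV. Of all genes tested 3.91% were called higher with shAHCY_2 and 7.58% with shAHCY_4. NCAPD3, NCAPH2 and SMC2, the genes that had fallen least, did not pass the test with either hairpin. The tests are edgeR's quasi-likelihood test with Benjamini-Hochberg adjustment over all 13526 genes and a threshold of 0.05. In bulk RNA, fewer cells in mitosis or its approach and less of a transcript in each cell cannot be told apart.

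**Figure D1:**
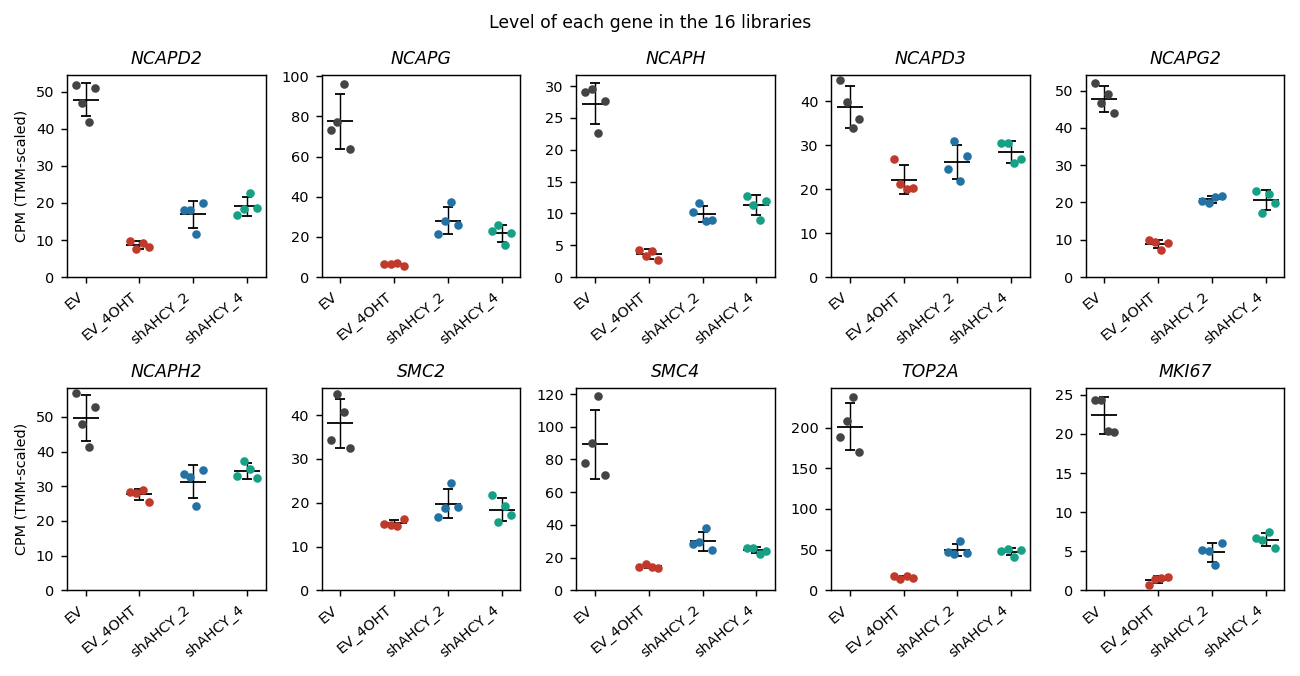
Level of each gene in every library (points, CPM scaled by TMM factors, linear axis from 0) for the 4 groups, with the mean (long bar) and SD (n = 4). In each panel the 4 EV libraries lie above the 12 libraries given 4OHT, and EV_4OHT is the lowest group on average.

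The promoters are shown because most of these genes moved together. In cell-cycle genes a TTTGAA element, called the CHR, is bound by the DREAM repressor in resting cells and by B-MYB and MuvB in dividing ones, and CCAAT is the letter sequence bound by NF-Y. RefSeq (GRCh38.p14) promoter entries were found for 9 of the 10 genes, in 12 entries, and the 250 bases before each start were searched on both strands. TTTGAA, which reads as TTCAAA on the other strand, was present for 5 of the 9 genes, namely NCAPD2, NCAPG, SMC4, TOP2A and MKI67, and in 13.3% of all 35116 promoters of the same length. CCAAT, which reads as ATTGG on the other strand, was present for 5, namely NCAPD2, NCAPD3, NCAPH, TOP2A and MKI67, and in 32.0% of all promoters. Both were present for NCAPD2, TOP2A and MKI67, and in 4.69% of all promoters. An E2F-type match (TTTCCCGC, TTTGGCGC, TTTCGCGC or TTTGCCGC) was present for NCAPD3 alone, and in 2.79% of all promoters. The percentages count entries, while a gene with 2 entries was counted here if either matched. By entry, TTTGAA was in 5 of the 12, CCAAT in 5 and the E2F type in 1. A match describes the letters and is neither a shown binding site nor a cause. The counts were made on hg19/GRCh37, another build than that of these coordinates. The 5 sequences below run 5′ to 3′ on the gene's strand and end at the base before the start, and capitals mark TTTGAA and CCAAT on either strand. They are 4 of the 5 genes with TTTGAA, and NCAPG2, which holds neither motif. SMC4, the gene with TTTGAA that is not printed, held 1 match in 1 of its 2 entries and no CCAAT.
NCAPD2, chr12:6493852-6494101, plus strand: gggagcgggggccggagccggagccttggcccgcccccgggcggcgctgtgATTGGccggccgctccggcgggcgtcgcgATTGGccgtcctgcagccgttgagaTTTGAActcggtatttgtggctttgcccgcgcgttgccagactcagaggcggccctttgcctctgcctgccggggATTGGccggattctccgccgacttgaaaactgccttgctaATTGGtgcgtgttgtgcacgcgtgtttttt
NCAPG, chr4:17810729-17810978, plus strand: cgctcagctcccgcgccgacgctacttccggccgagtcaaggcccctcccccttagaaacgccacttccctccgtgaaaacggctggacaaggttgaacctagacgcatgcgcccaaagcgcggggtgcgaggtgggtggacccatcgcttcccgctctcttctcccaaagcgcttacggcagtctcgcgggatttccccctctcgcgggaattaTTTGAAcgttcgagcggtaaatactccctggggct
TOP2A, chr17:40417897-40418146, minus strand: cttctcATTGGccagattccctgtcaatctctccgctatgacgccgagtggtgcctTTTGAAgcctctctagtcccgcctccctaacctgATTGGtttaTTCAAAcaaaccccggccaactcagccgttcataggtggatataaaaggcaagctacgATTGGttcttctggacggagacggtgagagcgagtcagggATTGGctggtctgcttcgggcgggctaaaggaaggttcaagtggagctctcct
MKI67, chr10:128126424-128126673, minus strand: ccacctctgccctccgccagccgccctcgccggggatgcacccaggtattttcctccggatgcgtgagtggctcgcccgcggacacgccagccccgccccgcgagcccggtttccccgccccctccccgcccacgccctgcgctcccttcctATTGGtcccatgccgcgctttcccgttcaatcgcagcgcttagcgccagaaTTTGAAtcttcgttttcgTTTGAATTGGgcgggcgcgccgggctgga
NCAPG2, chr7:158704805-158705054, minus strand: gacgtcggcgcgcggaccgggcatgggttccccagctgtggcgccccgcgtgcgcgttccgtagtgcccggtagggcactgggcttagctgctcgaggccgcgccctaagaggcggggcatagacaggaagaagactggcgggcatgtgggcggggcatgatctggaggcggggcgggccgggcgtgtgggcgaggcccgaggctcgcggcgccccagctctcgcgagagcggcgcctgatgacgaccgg

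NCAPD2 held 1 TTTGAA and 4 CCAAT matches, and TOP2A held 2 and 4. At least 3 CCAAT matches occur in 2.93% of all promoters. In NCAPG the single TTTGAA lay 35 to 30 bases before the start. MKI67 held 2 TTTGAA matches, at 47 to 42 and 29 to 24 bases before the start, and 2 CCAAT matches, of which the nearer shared 1 base with the nearer TTTGAA. At least 2 TTTGAA matches occur in 1.72% of all promoters. NCAPG2 and SMC2 had no match to any of the 3 motif types in this window. Their log2 fold changes in EV_4OHT were -2.43 and -1.32.

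The first comparison asks how these genes respond to RAS activation in cells without a hairpin. All 10 were lower in EV_4OHT and none higher, and in each the ranges of the 2 groups did not overlap. Of all genes tested, 24% were lower with ranges that did not overlap. The median log2 fold change of the 10 genes was -2.53, against -0.02 for all genes tested.

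Among the condensin I subunits, NCAPH, the kleisin, stood at 29.1, 29.6, 22.6 and 27.6 CPM in EV, at 4.32, 3.30, 4.08 and 2.71 in EV_4OHT, at 10.2, 11.7, 8.82 and 8.95 in shAHCY_2 and at 12.8, 11.4, 9.03 and 12 in shAHCY_4. The EV libraries were the highest and the EV_4OHT libraries the lowest, the 2 hairpin groups lay between and overlapped each other, and neither overlapped EV or EV_4OHT. NCAPH fell by 2.91 ± 0.16 (log2, SE) in EV_4OHT, a 7.54-fold drop (adjusted p = 5.71e-13, edgeR's quasi-likelihood test). It was 1.46 ± 0.17 higher in shAHCY_2 than in EV_4OHT (adjusted p = 3.56e-06) and 1.64 ± 0.17 higher in shAHCY_4 (adjusted p = 3.45e-07), by edgeR's quasi-likelihood test.

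NCAPG, a DNA-gripping HEAT subunit, stood at 73.0, 77.2, 96.3 and 63.6 CPM in EV, at 6.32, 6.60, 7.16 and 5.56 in EV_4OHT, at 21.4, 27.7, 37.4 and 26 in shAHCY_2 and at 23.0, 25.8, 16.1 and 22.1 in shAHCY_4. Replicate 51 was the highest of EV, replicate 59 the highest of shAHCY_2 and replicate 63 the lowest of shAHCY_4, and no EV, EV_4OHT or hairpin range met another, except those of the 2 hairpins. Its drop of 12.1-fold in EV_4OHT (log2 -3.59 ± 0.18) was the largest of any condensin subunit. NCAPG was also the condensin subunit with the largest rise in both hairpin groups, by 2.12 ± 0.18 in shAHCY_2 and 1.75 ± 0.18 in shAHCY_4 on the log2 scale (adjusted p = 3.49e-08 and 3.96e-07, edgeR's quasi-likelihood test).

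NCAPD2, the other HEAT subunit of condensin I, stood at 51.8, 47.1, 41.8 and 51 CPM in EV, at 9.73, 7.54, 9.17 and 8.05 in EV_4OHT, at 18.1, 18.1, 11.7 and 20.1 in shAHCY_2 and at 16.7, 18.4, 22.6 and 18.6 in shAHCY_4. Replicate 59 was the lowest hairpin library and still above every EV_4OHT library. NCAPD2 fell by 2.47 ± 0.14 on the log2 scale in EV_4OHT, a 5.55-fold drop (adjusted p = 1.62e-12, edgeR's quasi-likelihood test). It was 1.99-fold higher in shAHCY_2 and 2.22-fold higher in shAHCY_4 than in EV_4OHT.

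In condensin II the subunits moved unequally. NCAPG2, the HEAT subunit corresponding to NCAPG, stood at 52.1, 46.6, 49 and 43.9 CPM in EV, at 9.81, 9.35, 7.36 and 9.10 in EV_4OHT, at 20.4, 19.9, 21.5 and 21.8 in shAHCY_2 and at 23.1, 17.1, 22.3 and 19.7 in shAHCY_4. Its EV, EV_4OHT and hairpin libraries did not overlap, as for condensin I. The drop in EV_4OHT was 5.39-fold (log2 -2.43 ± 0.11, adjusted p = 3.72e-14, edgeR's quasi-likelihood test), and the rises were 2.35-fold in shAHCY_2 and 2.31-fold in shAHCY_4.

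NCAPH2, the condensin II kleisin, stood at 56.7, 48.0, 41.3 and 52.9 CPM in EV, at 28.3, 28.0, 28.9 and 25.5 in EV_4OHT, at 33.6, 32.6, 24.4 and 34.7 in shAHCY_2 and at 32.9, 37.4, 35.1 and 32.3 in shAHCY_4. EV lay above all others, shAHCY_2 overlapped EV_4OHT through replicate 59, and shAHCY_4 lay just above EV_4OHT. NCAPH2 fell by 0.84 ± 0.11 on the log2 scale in EV_4OHT, a 1.8-fold drop (adjusted p = 1.13e-06, edgeR's quasi-likelihood test). Its log2 difference from EV_4OHT was 0.18 in shAHCY_2 (95% interval -0.05 to 0.42, adjusted p = 0.363) and 0.31 in shAHCY_4 (0.08 to 0.55, adjusted p = 0.0655), neither of which passed edgeR's quasi-likelihood test.

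NCAPD3, the other HEAT subunit of condensin II, stood at 44.7, 39.7, 33.9 and 35.8 CPM in EV, at 26.9, 21.2, 20.1 and 20.2 in EV_4OHT, at 24.5, 30.8, 21.9 and 27.5 in shAHCY_2 and at 30.6, 30.4, 25.9 and 26.7 in shAHCY_4. Replicate 53 stood above the other EV_4OHT libraries and overlapped both hairpin groups. The drop in EV_4OHT was the smallest of the 10 genes, 1.75-fold (log2 -0.80 ± 0.12, adjusted p = 7.50e-06, edgeR's quasi-likelihood test). NCAPD3 differed from EV_4OHT by 0.25 on the log2 scale in shAHCY_2 (95% interval -0.0049 to 0.51, adjusted p = 0.240) and by 0.36 in shAHCY_4 (0.10 to 0.62, adjusted p = 0.0539), so neither call passed in edgeR's quasi-likelihood test. Both near misses with shAHCY_4 depended on the setting. NCAPD3 passed with shAHCY_4 under 10 of 26 alternatives, including DESeq2 and leaving out replicate 53, and NCAPH2 under 7. With shAHCY_2 NCAPH2 passed under 2 of the 26. With each library's GC trend removed, NCAPH2 passed with both hairpins. Its log2 differences were then 0.25 in shAHCY_2 and 0.30 in shAHCY_4 (adjusted p = 0.0361 and 0.0064, edgeR's quasi-likelihood test).

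The shared core split as well. SMC4, 1 of the 2 ATPase arms, stood at 77.8, 89.9, 119 and 70.6 CPM in EV, at 14.5, 16.1, 14.5 and 13.8 in EV_4OHT, at 28.0, 29.2, 38.1 and 24.7 in shAHCY_2 and at 25.9, 25.7, 21.9 and 24.2 in shAHCY_4. The groups given 4OHT lay far below EV, and both hairpin groups lay above EV_4OHT without overlap. SMC4 fell 6.05-fold in EV_4OHT (log2 -2.60 ± 0.15) and rose 2.03-fold in shAHCY_2 and 1.65-fold in shAHCY_4 (adjusted p = 1.10e-12, 8.76e-05 and 0.00196, edgeR's quasi-likelihood test).

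SMC2, the other ATPase arm, stood at 34.4, 44.7, 40.7 and 32.5 CPM in EV, at 15.2, 14.8, 14.6 and 16.4 in EV_4OHT, at 16.7, 18.8, 24.5 and 19.0 in shAHCY_2 and at 21.8, 15.6, 19.2 and 17.2 in shAHCY_4. EV again lay above all others, shAHCY_2 lay just above EV_4OHT, and shAHCY_4 overlapped it. SMC2 fell 2.50-fold in EV_4OHT (log2 -1.32 ± 0.13, adjusted p = 1.26e-08). Against EV_4OHT it was 0.37 higher on the log2 scale in shAHCY_2 (95% interval 0.09 to 0.64, adjusted p = 0.101) and 0.26 in shAHCY_4 (-0.01 to 0.54, adjusted p = 0.203), neither of which passed edgeR's quasi-likelihood test. The log2 ratio of SMC4 to SMC2 counts, a pair chosen after the values were seen and not tested, was 1.21 ± 0.23 (SD, n = 4) in EV, -0.05 ± 0.15 in EV_4OHT, 0.60 ± 0.15 in shAHCY_2 and 0.41 ± 0.24 in shAHCY_4.

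TOP2A stood at 188, 208, 238 and 170.5 CPM in EV, at 17.1, 14.5, 17.3 and 15.7 in EV_4OHT, at 47.3, 44.8, 61.2 and 46.4 in shAHCY_2 and at 48.0, 51.3, 41.1 and 49.1 in shAHCY_4. Replicate 59 was the highest hairpin library, and only the ranges of the 2 hairpin groups met. TOP2A fell 12.4-fold in EV_4OHT (log2 -3.64 ± 0.12, adjusted p = 1.12e-16, edgeR's quasi-likelihood test). It rose 3.08-fold in shAHCY_2 and 2.93-fold in shAHCY_4, with adjusted p of 4.11e-09 and 6.05e-09 by edgeR's quasi-likelihood test.

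MKI67 stood at 24.4, 24.4, 20.4 and 20.3 CPM in EV, at 0.665, 1.41, 1.61 and 1.73 in EV_4OHT, at 5.18, 5.01, 3.22 and 6.01 in shAHCY_2 and at 6.70, 6.46, 7.47 and 5.36 in shAHCY_4. The EV_4OHT levels rest on 8 to 24 counts per library, the thinnest of any of the 10 genes. The drop was the largest of the 10, 16.2-fold (log2 -4.02 ± 0.21, adjusted p = 2.89e-13, edgeR's quasi-likelihood test). With shAHCY_4 MKI67 also had the largest rise of the 10, 4.70-fold, and with shAHCY_2 it rose 3.57-fold (adjusted p = 3.96e-07 and 1.53e-05, edgeR's quasi-likelihood test).

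**Figure D2:**
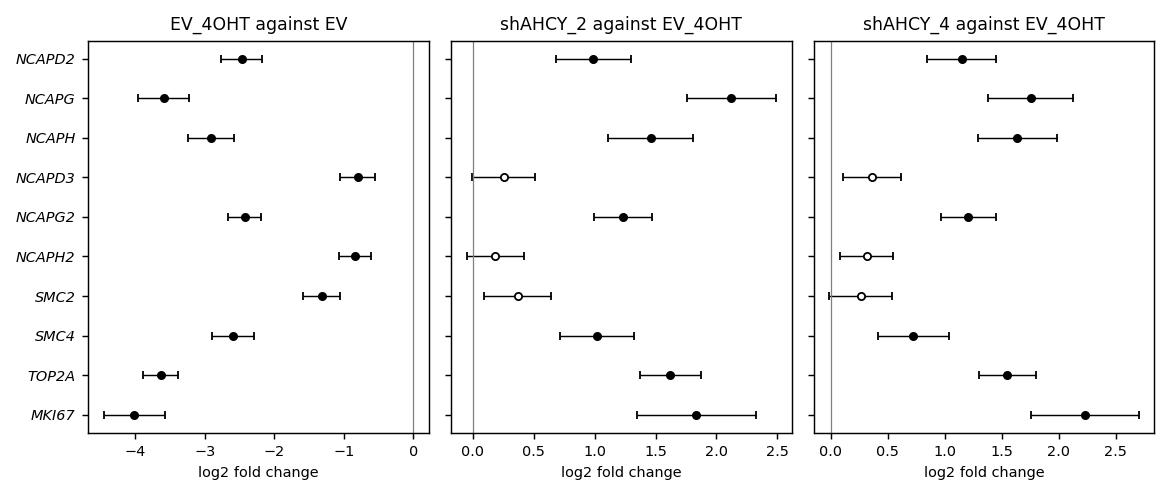
Log2 fold change of each gene in 3 comparisons (points), with the 95% interval (bars) from edgeR's quasi-likelihood fit. Filled points have an adjusted p under 0.05, and open points do not. All 10 genes lie below 0 in EV_4OHT against EV, and NCAPD3, NCAPH2 and SMC2 are the open points against EV_4OHT with both hairpins.

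The next comparisons ask what each AHCY hairpin does in cells with active RAS. In shAHCY_2 7 of the 10 genes rose and none fell against EV_4OHT, against the 3.91% of all genes given above. In shAHCY_4 the same 7 genes rose and none fell, against 7.58% of all genes. No gene of the 10 was lower with either hairpin at an unadjusted p under 0.05, or in DESeq2 or limma-voom, which called 7 or 8 higher. The median log2 fold change of the 10 genes was 1.13 and 1.178, against 0.01 for all genes in both cases. In each hairpin group 8 of the 10 genes had ranges wholly above EV_4OHT, which held for 7.27% of all genes in shAHCY_2 and 12.1% in shAHCY_4. The 2 comparisons share the 4 EV_4OHT libraries, so they are not independent of each other.

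None of the 10 genes returned to the EV level. All 10 were lower than EV in shAHCY_2, where 23.6% of all genes were called lower, and all 10 in shAHCY_4, where 25.8% were. NCAPD3 came nearest, at 67.9% of its EV mean in shAHCY_2 and 73.6% in shAHCY_4, from 57.3% in EV_4OHT. NCAPH2 stood at 63% and 69.2%, from 55.7%, and SMC2 at 51.9% and 48.4%, from 40.1%. These 3 genes were the nearest to EV in each of the 3 groups given 4OHT.

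Among the genes that rose, NCAPH reached 36.3% and 41.4% of its EV mean in shAHCY_2 and shAHCY_4, from 13.2% in EV_4OHT, and NCAPD2 reached 35.5% and 39.8%, from 18%. NCAPG reached 36.2% and 28.0%, from 8.27%, and NCAPG2 43.6% and 43.0%, from 18.6%. SMC4 reached 33.7% and 27.4%, from 16.5%. TOP2A, at 24.8% and 23.6% from 8.04%, and MKI67, at 21.7% and 29% from 6.05%, were the furthest below EV on average in shAHCY_2, and TOP2A was the furthest below in shAHCY_4.

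**Figure D3:**
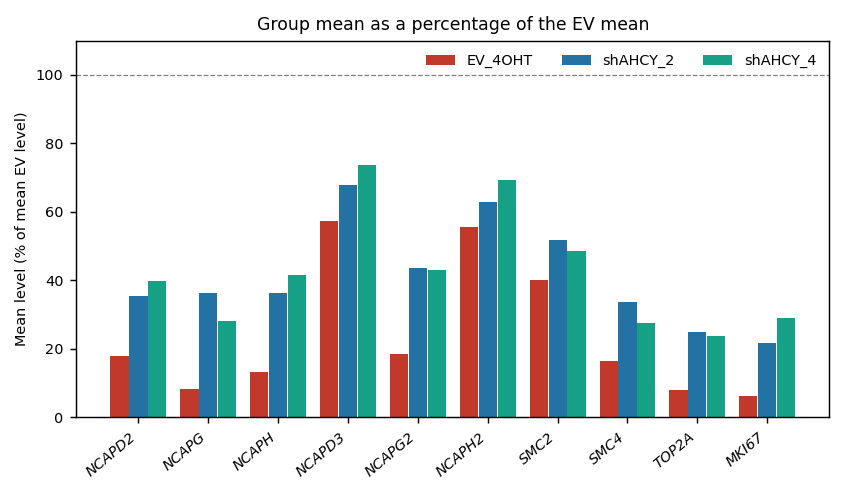
Mean level of each gene in the 3 groups given 4OHT as a percentage of its mean in EV (bars from 0, dashed line at 100%, n = 4 libraries per mean). EV_4OHT is the lowest bar for every gene, from 6.05% for MKI67 to 57.3% for NCAPD3, and no bar reaches the line.

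The 2 hairpins were compared directly. None of the 10 genes was called different between shAHCY_4 and shAHCY_2 by edgeR's quasi-likelihood test, nor by DESeq2 or limma-voom, and 1, NCAPG, had an unadjusted p under 0.05. Of all genes 1.24% were called in either direction. The ranges of the 2 hairpin groups overlapped for all 10, while 10.9% of all genes had ranges that did not. NCAPG was 0.37 lower in shAHCY_4 on the log2 scale (-0.37, 95% interval -0.70 to -0.04, adjusted p = 0.229, edgeR's quasi-likelihood test), SMC4 differed by -0.29 (-0.59 to 0.0042) and MKI67 by 0.40 (-0.0034 to 0.80). For TOP2A the difference was -0.07 (-0.30 to 0.16) and for NCAPG2 -0.02 (-0.25 to 0.20), the narrowest intervals near 0. For NCAPG, SMC4 and MKI67 a difference of up to 0.70, 0.59 and 0.80 lies within the interval, so these data do not show that the hairpins act alike.

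The RNA balance between subunits of the 2 complexes was read as the log2 ratio of a condensin I subunit's counts to those of its condensin II counterpart in the same library, which does not depend on scaling between libraries. Such a ratio describes transcripts, and the amounts of assembled complexes were not measured. For the kleisins, NCAPH over NCAPH2, the ratio was -0.87 ± 0.12 (SD, n = 4) in EV, -2.96 ± 0.24 in EV_4OHT, -1.66 ± 0.23 in shAHCY_2 and -1.62 ± 0.27 in shAHCY_4. It differed by -2.10 between EV_4OHT and EV, and was 1.31 higher in shAHCY_2 than in EV_4OHT and 1.35 higher in shAHCY_4. Exact two-sided permutation tests gave p = 0.0286 for each of the 3, the smallest that 4 libraries against 4 can give, and 0.0429 after Benjamini-Hochberg adjustment over the 12 ratio tests.

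Both HEAT pairs moved the same way. NCAPD2 over NCAPD3 went from 0.32 ± 0.13 in EV to -1.35 ± 0.17 in EV_4OHT, and was -0.64 ± 0.23 in shAHCY_2 and -0.58 ± 0.29 in shAHCY_4, with differences of -1.67, 0.72 and 0.77 that each had an exact permutation p of 0.0286 (adjusted 0.0429). The sign of this ratio changed with 4OHT, from more NCAPD2 reads to more NCAPD3 reads. NCAPG over NCAPG2 went from 0.68 ± 0.22 in EV to -0.47 ± 0.30 in EV_4OHT, and was 0.40 ± 0.31 in shAHCY_2 and 0.07 ± 0.44 in shAHCY_4. The differences for this pair were -1.15 and 0.87 (exact permutation p = 0.0286, adjusted 0.0429) and 0.54 with shAHCY_4, which did not pass (exact permutation p = 0.0571, adjusted 0.0762). Between the hairpins the 3 ratios differed by 0.04, 0.06 and -0.33, in the order kleisins, NCAPD2 pair and NCAPG pair, with adjusted exact permutation p of 0.779, 0.8286 and 0.343.

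**Figure D4:**
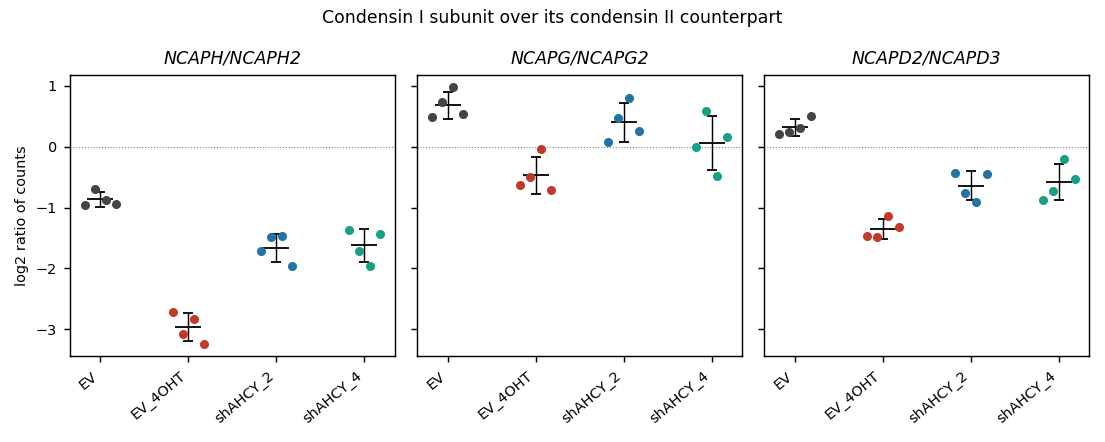
Log2 ratio of the counts of a condensin I subunit to its condensin II counterpart in each library (points), with the mean and SD of the 4 libraries of a group. The 4 EV_4OHT libraries lie below the 4 EV libraries in each panel, and for NCAPH/NCAPH2 and NCAPD2/NCAPD3 both hairpin groups lie between.

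Levels can be set against each other between genes only per length, and the order depended on the transcript length used. The median length depends on how many short transcripts are annotated for a gene. It was 579 bases for TOP2A, whose longest transcript has 5758, and 733 of 12678 for MKI67. For NCAPD3 it was 750 of 5539, for NCAPH2 1019.5 of 2077 and for SMC2 4266 of 5992. Per kilobase of the longest annotated transcript, TOP2A led in EV at 34.9 ± 5.01 CPM per kilobase, ahead of NCAPH2 at 23.9 ± 3.20 without overlap. With the median transcript length TOP2A also led in EV, and NCAPH2 came 6th of the 10. In EV_4OHT NCAPH2 led at 13.3 ± 0.728 CPM per kilobase of the longest transcript, followed by NCAPD3 at 3.99 ± 0.590 and TOP2A at 2.81 ± 0.234. With median lengths NCAPD3, at 29.5 ± 4.36, and TOP2A, at 27.9 ± 2.32, had means above that of NCAPH2, at 27.2 ± 1.48, in EV_4OHT. In both hairpin groups NCAPH2 led TOP2A with the longest transcripts, at 15.1 and 16.6 against 8.67 and 8.23, and TOP2A led NCAPH2 with median lengths, at 86.2 and 81.9 against 30.7 and 33.8. MKI67 was the lowest of the 10 in all 4 groups per kilobase of its longest transcript, and with median lengths only in EV_4OHT. On the same per-length scale the mean NCAPH to NCAPH2 ratio was 0.387 in EV and 0.0911 in EV_4OHT, or 0.303 and 0.0713 with median lengths.

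Some values moved with the base composition of the transcripts. Gene levels, taken as deviations from the mean of all 16 libraries, ran against transcript GC content in EV replicate 51 and shAHCY_2 replicate 59. Spearman's rho across genes was -0.266 and -0.535 there, against -0.118 to 0.281 in the other 14 libraries. Differences between groups also enter this rho. In both libraries the 5 genes with transcripts under 45% GC (SMC4, SMC2, NCAPG, TOP2A and NCAPG2, 37.3% to 41.4%) lay above the mean of the other 3 libraries of the group, by 0.04 to 0.58 on the log2 scale in replicate 51 and 0.06 to 0.58 in replicate 59. The 5 genes over 45% GC (NCAPH, MKI67, NCAPD3, NCAPD2 and NCAPH2, 47.6% to 62.2%) lay below it, by -0.35 to -0.17 and by -0.75 to -0.22. In the other 14 libraries the same measure of the 10 genes ran from -1.25 to 0.49. The 2 libraries and the 45% cut were chosen after the values were seen. In shAHCY_4 replicates 62 and 63 rho was 0.281 and 0.227, in the opposite direction, and these were kept. With replicates 51 and 59 left out, a setting added after the data were seen, all 10 genes remained lower in EV_4OHT. The same 7 again rose with each hairpin, NCAPH2 passed with shAHCY_2 as well (0.28 on the log2 scale, adjusted p = 0.0468, edgeR's quasi-likelihood test), and NCAPD3 and NCAPH2 passed with shAHCY_4.

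**Figure D5:**
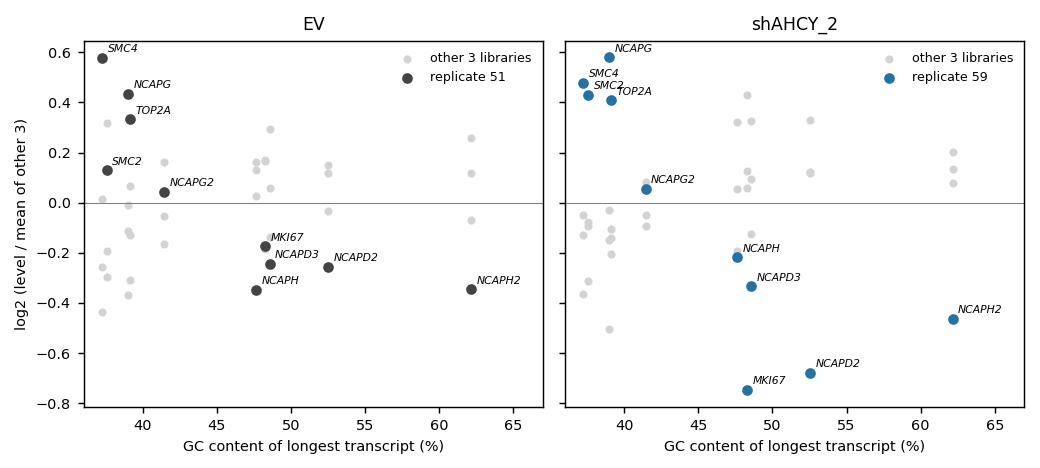
Log2 of a gene's level in 1 library over the mean of the other 3 libraries of its group (vertical axis) against the GC content of its longest transcript (horizontal axis, %), for EV and shAHCY_2. Coloured points are replicates 51 and 59, where genes under 45% GC lie above 0 and genes over 45% below it, and grey points are the other libraries.

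Reads at some of these loci may be shared with a gene on the other strand, since Smart-Seq2 does not mark strand. Overlaps were read from a GENCODE annotation of GRCh38, another build than that of the counts, so they may differ in the gene models counted. There the exons of SMC4 share 1561 bases with TRIM59 and 607 with IFT80, and those of NCAPG 1631 with LCORL. Those of NCAPD2 share 486 with MRPL51, and those of NCAPD3 465 with JAM3 and 249 with VPS26B. TRIM59 fell with SMC4 in EV_4OHT (log2 -1.74 ± 0.15) and rose by 0.49 ± 0.15 in shAHCY_2 (adjusted p = 1.04e-09 and 0.0461, edgeR's quasi-likelihood test), and with shAHCY_4 its difference was 0.05 ± 0.15 (adjusted p = 0.878). IFT80 did not pass in EV_4OHT (0.31 ± 0.16) and rose by 0.55 ± 0.16 in shAHCY_2 (adjusted p = 0.0428, edgeR's quasi-likelihood test). VPS26B fell with NCAPD3 in EV_4OHT (-0.50 ± 0.15, adjusted p = 0.00689, edgeR's quasi-likelihood test). MRPL51 and JAM3 were higher in EV_4OHT by 0.32 ± 0.08 and 0.34 ± 0.09, opposite to NCAPD2 and NCAPD3, and LCORL, at -0.31 ± 0.14, did not pass the test. How the authors' counting split shared reads was not tested. NCAPG2, NCAPH, NCAPH2, SMC2, TOP2A and MKI67 shared no exonic base with another gene in the GRCh38 annotation. The NCAPG pseudogene NCAPGP1 held 44 counts over all 16 libraries.

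Genes acting with condensins and Ki-67 were read from lists. For each list the median log2 fold change is given for EV_4OHT against EV, shAHCY_2 against EV_4OHT and shAHCY_4 against EV_4OHT, in that order, beside -0.02, 0.01 and 0.01 for all genes tested. Of 8 regulators of condensin, 5 fell and 2 rose in EV_4OHT, 5 rose in each hairpin group, and 1 fell with shAHCY_4 (medians -2.43, 1.0 and 1.17). For this list and those below, 26.8% of all genes tested were called lower in EV_4OHT and 26.7% higher. With shAHCY_2 3.91% were called higher, and with shAHCY_4 7.58% were called higher and 6.86% lower. CDK1, the kinase that phosphorylates condensin at mitotic entry, went from 96.7 ± 22.9 CPM in EV to 7.36 ± 0.567 in EV_4OHT, and rose by 2.0 ± 0.18 with shAHCY_2 and 1.65 ± 0.18 with shAHCY_4 on the log2 scale. Its partner cyclin CCNB1 fell by 1.78 ± 0.08 and rose by 0.60 ± 0.07 and 0.83 ± 0.07. PLK1, a mitotic kinase that acts on condensin II, fell by 3.51 ± 0.14 and rose by 1.87 ± 0.14 and 2.17 ± 0.14. Every change named for these 3 genes had an adjusted p of at most 1.17e-05 in edgeR's quasi-likelihood test. The 2 that rose in EV_4OHT were the casein kinase 2 subunits CSNK2A1 (0.52) and CSNK2B (0.38), and CSNK2B was the 1 that fell with shAHCY_4 (-0.40), both named after their values were seen.

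In the chromosomal passenger complex, which corrects chromosome attachment, 3 of 4 genes fell in EV_4OHT and the same 3 rose with each hairpin (medians -2.76, 1.09 and 1.27). BIRC5 fell by 3.57 ± 0.11, CDCA8 fell by 2.87 ± 0.11 and the kinase AURKB fell by 2.66 ± 0.11, all on the log2 scale. They rose by 1.70, 1.03 and 1.14 with shAHCY_2 and by 1.97, 1.36 and 1.17 with shAHCY_4. The adjusted p of each of these was at most 3.66e-06 in edgeR's quasi-likelihood test.

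Cohesin is the SMC complex that holds sister chromatids together. Of its 10 core and loader genes 6 fell in EV_4OHT, none passed with shAHCY_2 and 1 rose with shAHCY_4, where 7.58% of all genes were called higher. At an unadjusted p under 0.05, 5 of the 10 were higher with shAHCY_2, and DESeq2 called 1 and limma-voom 0. With shAHCY_4 4 were higher and 1 lower at that level, and DESeq2 called 1 higher and 1 lower and limma-voom 0. SMC3 fell by 1.10 ± 0.15, the kleisin RAD21 fell by 0.92 ± 0.10 and SMC1A fell by 0.71 ± 0.09 (log2, adjusted p = 1.93e-06, 5.62e-08 and 3.33e-07, edgeR's quasi-likelihood test). SMC1A rose by 0.26 ± 0.09 with shAHCY_4 (adjusted p = 0.0470, edgeR's quasi-likelihood test), and the count of 1 ranged from 0 to 4 over the alternatives. The list medians were -0.32, 0.20 and 0.18. Between the hairpins 1 of the 10 was called, where 1.24% of all genes were. This was STAG1, named after its values were seen, which was lower in shAHCY_4 than in shAHCY_2 (log2 -0.32 ± 0.08, adjusted p = 0.0427, edgeR's quasi-likelihood test). DESeq2 also called 1 lower and limma-voom 0.

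Of 7 genes that establish, protect or release cohesion, 5 fell in EV_4OHT and the same 5 rose with each hairpin (medians -2.33, 1.01 and 1.16). SGO1, the protector of centromeric cohesion, fell by 3.18 ± 0.20 and rose by 1.75 ± 0.22 and 1.49 ± 0.22. PTTG1 (securin) fell by 2.36 ± 0.13 and rose by 1.01 ± 0.13 and 1.16 ± 0.13, and CDCA5 (sororin) fell by 2.33 ± 0.16 and rose by 1.16 ± 0.17 and 1.22 ± 0.17. All 9 of these log2 changes had an adjusted p of at most 9.43e-05 in edgeR's quasi-likelihood test.

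The SMC5/6 complex, a DNA repair relative of condensin, had 5 of 7 genes lower in EV_4OHT, 1 higher with shAHCY_2 and 2 higher with shAHCY_4 (medians -0.46, 0.21 and 0.10). NSMCE4A fell by 0.96 ± 0.11 and rose by 0.38 ± 0.12 with shAHCY_4 (adjusted p = 2.95e-07 and 0.0339, edgeR's quasi-likelihood test). SMC6 fell by 0.55 ± 0.18 and EID3 fell by 0.84 ± 0.29 (adjusted p = 0.0149 and 0.0182, edgeR's quasi-likelihood test). Leaving out single EV_4OHT libraries brought the 5 down to 2 (replicates 53 and 54, 1 at a time) or 3 (replicate 56).

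Of the 5 other topoisomerases, 4 rose in EV_4OHT and 1 fell, and 1 rose with each hairpin (medians 0.36, 0.05 and 0.06). TOP2B, the paralogue of TOP2A that is expressed outside the cell cycle too, fell from 19.9 ± 4.56 to 8.18 ± 1.07 CPM (log2 -1.28 ± 0.16, adjusted p = 4.95e-07) and rose by 0.70 ± 0.16 and 0.56 ± 0.16 with shAHCY_2 and shAHCY_4 (adjusted p = 0.00927 and 0.0244, edgeR's quasi-likelihood test). The type I enzymes TOP1 and TOP3A rose by 0.43 ± 0.09 and 0.48 ± 0.15 in EV_4OHT (adjusted p = 0.000382 and 0.00875, edgeR's quasi-likelihood test), and neither passed with a hairpin. The rise of TOP2B with shAHCY_4 did not pass in limma-voom or when EV_4OHT replicate 53, 54 or 56 or shAHCY_4 replicate 61 was left out. Of all genes 26.7% were called higher in EV_4OHT. The count of 4 was 2 with library totals alone and without EV replicate 51 or EV_4OHT replicate 55. The log2 ratio of TOP2A to TOP2B counts, a pair chosen after the values were seen and not tested, was 3.36 ± 0.21 in EV, 0.99 ± 0.13 in EV_4OHT, 1.89 ± 0.04 in shAHCY_2 and 1.96 ± 0.21 in shAHCY_4 (SD, n = 4).

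Of 9 partners of Ki-67 or proteins of the chromosome periphery, 8 were tested, and they divided. In EV_4OHT 3 fell and 4 rose, and 2 rose with each hairpin (medians 0.17, 0.14 and 0.19). All genes divided in EV_4OHT too, with 26.8% called lower and 26.7% higher. CDCA2, which brings protein phosphatase 1 to chromosomes, fell by 2.16 ± 0.12, and KIF15, a mitotic kinesin that binds Ki-67, fell by 3.58 ± 0.31 (log2, adjusted p = 1.54e-12 and 1.82e-09, edgeR's quasi-likelihood test). They rose by 0.60 ± 0.13 and 1.65 ± 0.35 with shAHCY_2 and by 0.77 ± 0.13 and 2.09 ± 0.34 with shAHCY_4. PES1, a ribosome biogenesis factor, rose by 0.51 ± 0.09 in EV_4OHT (adjusted p = 9.87e-05, edgeR's quasi-likelihood test). Without EV replicate 49 the 4 that rose were 2.

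Across the 16 libraries the genes whose log2 CPM was most like that of 4 of the 10 were named by Pearson's r. The search covered 8521 genes outside the 10, so the 10 were not compared with each other. It is a description, since the points share libraries and groups. NCAPG was most like CDK1 (0.987), RRM2 (0.985) and PBK (0.980). TOP2A was most like CCNA2 (0.995), ANLN (0.991) and ARHGAP11A (0.990), and MKI67 most like AURKB (0.977), CDCA8 (0.976) and KIF2C (0.975). The genes most like NCAPH2 were ACTB (0.978), LMNA (0.974) and MOV10 (0.972).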

How the data were processed

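RNA was isolated with Trizol and an RNeasy column and made into full-length cDNA libraries (Smart-Seq2, Nextera XT), per the labels. The authors deposited raw counts, whole-number read counts per Ensembl gene for all 16 libraries and not normalized. CASAVA 1.8.2, the aligner TopHat2 2.0.11, the counter featureCounts 1.18.0 and the hg19/GRCh37 build are listed in the submitters' processing notes. The strand setting, multi-mapping rule and annotation release were not given in the sources used here, so counts with shared exons or near-identical copies are uncertain. Identifiers without a symbol (23062) held 0.635% of counts.

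Testing used edgeR 4.0.16 (R 4.3.3) on the 13526 genes kept by filterByExpr, with TMM factors and 1 quasi-likelihood model (glmQLFit, glmQLFTest) of all 16 libraries with a mean per group. Tests were two-sided, p-values were adjusted by Benjamini-Hochberg over every gene in the model, and the threshold was 0.05. Standard errors are the absolute log2 fold change over the square root of F, and 95% intervals use the model's degrees of freedom. The biological coefficient of variation was 11.9%. Counting error weighs most on MKI67 in EV_4OHT. CPM levels were scaled by TMM and are summarised as mean ± SD. Counterpart ratios were tested by exact permutation in SciPy 1.17.1. The test scripts were tested on simulated counts. Lengths and GC content (known for 98.0% of genes tested) come from the transcripts of a GRCh38 annotation. Overlaps come from the exon positions of its gene models, which may differ from those used for the counts.

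The members, gene lists and tests were chosen with earlier results of these data known. Named genes are all 10 members, AHCY and up to 3 genes per chromosome list with the smallest p in EV_4OHT against EV. The 3 genes outside the members most like each of NCAPG, NCAPH2, TOP2A and MKI67 are also named (log2 CPM, prior count 2, mean log2 CPM of at least 3). Alternatives were RLE, upper-quartile and no factors, DESeq2 1.42.0, limma-voom (limma 3.58.1), no filter, at least 10 counts in 8 libraries, models of the compared groups alone, removal of each library's GC trend and leaving out each library.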

Additional observations from a re-analysis of the deposited data

Results flagged for a closer look

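The 4 libraries of a group were checked for a single library far from the other 3 by Dixon's ratio, in 40 checks of a gene's level and 12 of a counterpart ratio, and chance marks about 1 in 20 groups. NCAPD3 in EV_4OHT replicate 53 stood at 26.9 CPM, against 20.1 to 21.2 in the other 3. TOP2A in shAHCY_2 replicate 59 stood at 61.2 CPM, against 44.8 to 47.3 in the other 3. Replicate 59 is 1 of the 2 libraries in which levels ran against GC content. Its part in the TOP2A value was not tested.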

How the results depend on the processing

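No paired analysis was possible because the replicate numbers (49 to 64) are not shared between groups. The counts of the 10 genes called stayed within 7 to 8 higher with shAHCY_2 and 7 to 9 with shAHCY_4 over 26 alternatives, and were 10 lower in EV_4OHT under each. Of 1560 fold changes of single genes, 10 changed sign, all between the hairpins. With the GC trend removed NCAPG2 was 0.042, SMC2 0.030 and TOP2A 0.046, and with EV 51 and shAHCY_2 59 both left out SMC2 was 0.0092 and TOP2A 0.042. Without 1 library NCAPG2 ranged from -0.079 to 0.048 (above 0 without replicate 60, 62 or 64), SMC2 from -0.184 to 0.0030 and TOP2A from -0.118 to 0.034 (both above 0 without replicate 59). Leaving out 1 library gave differences in log2 ratio, for EV_4OHT, shAHCY_2, shAHCY_4 and between the hairpins, of -2.18 to -2.01, 1.22 to 1.41, 1.26 to 1.46 and -0.060 to 0.15 (NCAPH/NCAPH2), -1.75 to -1.61, 0.65 to 0.80, 0.65 to 0.87 and -0.068 to 0.16 (NCAPD2/NCAPD3), and -1.30 to -1.06, 0.74 to 1.02, 0.36 to 0.72 and -0.51 to -0.15 (NCAPG/NCAPG2). Those tests could not pass, since 4 libraries against 3 cannot go below an exact permutation p of 0.0571. NCAPH/NCAPH2 differed between the hairpins by -0.060, -0.05 and -0.02 without replicates 60, 61 and 64, and NCAPD2/NCAPD3 by -0.03 and -0.068 without 59 and 63. Adding 0.5 or 5 counts changed no ratio call. Counts over all genes moved by over 1.5 times in 33 of 312 cases. With shAHCY_2 they were 529 higher and 415 lower, 349 higher without EV_4OHT replicate 55, and 273 lower without 54 or 764 with the GC trend removed. With shAHCY_4 they were 1025 and 928, 1577 and 1559 with only the 2 groups fitted, 679 higher without EV_4OHT replicate 56, 1483 lower with the GC trend removed, and 1663 and 1396 without EV 51 and shAHCY_2 59. Between the hairpins they were 73 and 95, and ranged over 28 to 327 and 38 to 430. For these all-gene counts the cause was not tested. Counts in the other gene lists moved by over 1.5 times in 121 of 2184 cases. MKI67 in EV_4OHT, at 8 to 24 counts per library, is limited most by depth.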
